A study of Mus musculus with 12 samples.

Results

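Small leucine-rich proteoglycans (SLRPs) are secreted matrix proteins built around leucine-rich repeats, and 7 of them were followed here: decorin (DCN), biglycan (BGN), asporin (ASPN), lumican (LUM), fibromodulin (FMOD), PRELP and osteoglycin (OGN). They were taken by gene symbol from a gene table that lists 13957 genes at one or both of 2 sites, 13645 above and 12337 below a spinal cord lesion. All 7 were listed below the lesion and 5 above it, where ASPN and OGN had no entry. The family members were selected on measured values, with their levels and genotype ratios in these data known, so those ratios are given as a description and no test was made on them.

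SLRPs bind collagen fibrils as they assemble and set fibril diameter and spacing in skin, tendon, cornea and scar tissue. Several of them also hold growth factors or receptors at the cell surface, decorin being known for binding transforming growth factor beta and biglycan for binding toll-like receptors. In the spinal cord the collagen-rich compartments are the meninges, the walls of larger vessels and, after an injury that opens the dura or reaches vessels, the fibrotic scar laid down by fibroblasts.

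RNA was sequenced from male mice that expressed human ApoE4 and that carried either 2 normal synj1 alleles (synj1+/+) or 1 inactive allele (synj1+/-). Mice received a contusion at thoracic level 9 at 4 months of age, and segments of about 2 mm above and below the lesion were taken at 14 days, giving 12 libraries in 4 groups of 3. ApoE4 and the injury were shared by all 4 groups, and uninjured or ApoE3 libraries were not analysed here. The table holds 1 combined value for each group, so no error can be given and no difference could be set against the spread between mice. Values were read as FPKM (fragments mapped to a gene, scaled to its transcript length and to the library's size) plus 1, and a difference of at least 2-fold on the FPKM plus 1 scale was taken as the threshold for counting genes.

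Synaptojanin 1 (SYNJ1), the gene with the inactive allele, was examined first. Its level above the lesion was 1904 FPKM in libraries labelled synj1+/+ and 2403 FPKM in libraries labelled synj1+/-, a log2 ratio of 0.34. Below the lesion the levels were 1846 and 2592 FPKM, a log2 ratio of 0.49. SYNJ1 RNA was thus higher in the groups labelled synj1+/- at both sites, against the labels, and every genotype direction given here rests on those labels and would turn if they were exchanged. The study's methods state that genotypes were checked by PCR. Whether the inactive allele still gives RNA that is counted was not tested.

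The promoters of 5 of the 7 genes (BGN, FMOD, OGN, ASPN and PRELP) matched an entry in the RefSeq promoter table of GRCm38.p6. Those of BGN, OGN and ASPN are shown because these genes lay past the 2-fold threshold below the lesion. Each runs 5′ to 3′ on the plus strand from 250 bases before the start of the gene to 50 bases after it. Capitals mark matches, on either strand, to a TATA box (TATAAA), a SMAD site (CAGAC), an AP-1 site (TGANTCA), a TEAD site (GGAATG) or a GC box (GGGCGG).
BGN, chrX:73483351-73483650: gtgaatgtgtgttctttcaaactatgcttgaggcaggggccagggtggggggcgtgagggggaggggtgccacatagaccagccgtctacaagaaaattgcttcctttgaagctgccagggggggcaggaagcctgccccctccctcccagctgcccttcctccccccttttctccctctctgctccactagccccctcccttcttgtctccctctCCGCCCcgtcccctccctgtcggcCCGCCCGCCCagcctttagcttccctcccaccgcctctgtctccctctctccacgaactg
OGN, chr13:49607765-49608064: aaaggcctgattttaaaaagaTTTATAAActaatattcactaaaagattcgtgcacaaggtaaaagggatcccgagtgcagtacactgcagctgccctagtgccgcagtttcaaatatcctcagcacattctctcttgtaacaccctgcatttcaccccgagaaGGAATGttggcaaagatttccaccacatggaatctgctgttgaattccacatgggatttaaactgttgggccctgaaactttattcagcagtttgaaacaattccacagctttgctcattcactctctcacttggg
ASPN, chr13:49544193-49544492: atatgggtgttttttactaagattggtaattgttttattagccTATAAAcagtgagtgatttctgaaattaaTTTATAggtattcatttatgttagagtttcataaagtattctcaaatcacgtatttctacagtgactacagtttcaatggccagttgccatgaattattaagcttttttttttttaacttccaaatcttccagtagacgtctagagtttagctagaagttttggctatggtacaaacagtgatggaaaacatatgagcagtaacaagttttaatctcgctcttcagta

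The BGN window was 63.7% G or C, against a median of 52.7% over all 32851 promoters in the table, and it held 3 GC boxes beginning 34, 10 and 6 bases before the start, the last 2 overlapping. The OGN window was 42.3% G or C and held a pair of overlapping TATAAA matches 229 and 227 bases before the start and a TEAD match 86 bases before it. The ASPN window was 31% G or C, with TATAAA matches 207 and 178 bases before the start. All of these TATAAA matches lay further upstream than the stretch just before the start where a working TATA box sits.

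FMOD and PRELP were the members with SMAD matches, and no member window held an AP-1 match. Over all promoters, 13.6% held TATAAA, 49.6% CAGAC, 7.81% TGANTCA, 14.7% GGAATG and 35.7% GGGCGG. These shares compare with 2, 2, 0, 1 and 1 of the 5 member promoters in the same order. A match is only a run of letters, and no link between a match and the levels that follow was tested.

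Above the lesion all 5 listed SLRPs were lower in libraries labelled synj1+/-, by less than 2-fold. Their median log2 ratio was -0.46, against -0.00 over all genes listed at that site, 51.0% of which were lower. None of the 5 reached 2-fold, the background being 0.557% of genes at least 2-fold lower. Counted from the lowest ratio of all 13645 genes at this site, LUM was at rank 356, DCN at 403, FMOD at 467, BGN at 2098 and PRELP at 4847. In bulk tissue, fewer cells of a type and less RNA per cell cannot be told apart.

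Decorin, which carries a chondroitin or dermatan sulfate chain on a collagen-binding core, measured 9.60 FPKM above the lesion in libraries labelled synj1+/+ and 6.54 in libraries labelled synj1+/-, a log2 ratio of -0.49. Biglycan, its close relative with the same kind of chains, measured 42.8 and 37.1 FPKM, a log2 ratio of -0.20. The listed class I members were therefore lower by less than 2-fold at this site, and asporin, which lacks such a chain, was not listed.

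Lumican, a keratan sulfate proteoglycan that spaces collagen fibrils in the cornea, was low above the lesion at 1.67 and 0.863 FPKM. Its log2 ratio was -0.52 on the FPKM plus 1 scale and -0.95 (1.93-fold) without the added 1. Fibromodulin, its relative in tendon and cartilage, measured 31.3 and 22.5 FPKM, a log2 ratio of -0.46. PRELP, which links basement membranes to the collagen beneath, measured 100.02 and 95.6 FPKM, a log2 ratio of -0.06. PRELP was the most abundant SLRP above the lesion in both groups and the one with the ratio closest to 0.

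**Figure D1:**
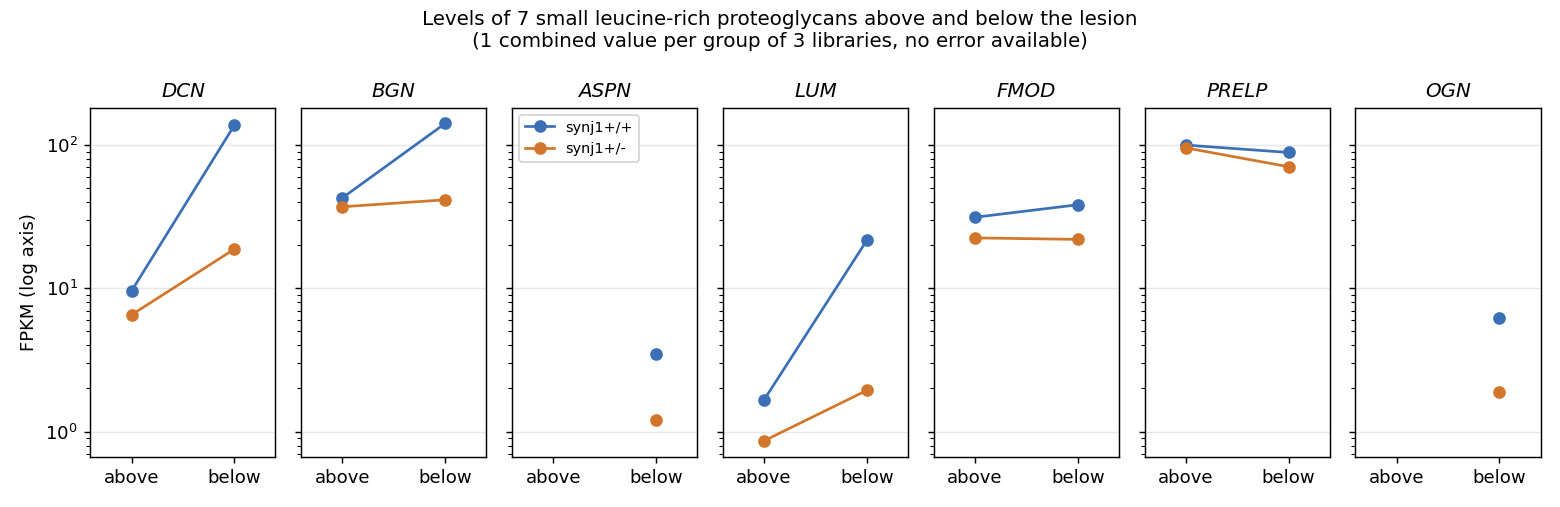
FPKM (log axis) of each SLRP above and below the lesion, with 1 point per group of 3 combined libraries and lines joining the sites of one genotype. Libraries labelled synj1+/+ stand apart below the lesion for DCN, LUM and BGN, while FMOD and PRELP stay within a narrow range and ASPN and OGN have values below the lesion only.

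Below the lesion all 7 SLRPs were lower in libraries labelled synj1+/-, and 5 of the 7 (DCN, LUM, BGN, OGN and ASPN) were lower by at least 2-fold. The background was 1.31% of genes, but the members were selected with this comparison known, so nothing is read from that contrast. Their median log2 ratio was -1.33, against 0.01 over all 12337 genes, 47.2% of which were lower. The difference was not even across the family, running from 1.25-fold for PRELP to 7.70-fold for LUM.

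Among the class I members, DCN measured 138 FPKM below the lesion in libraries labelled synj1+/+ and 18.8 in libraries labelled synj1+/-, a log2 ratio of -2.81. BGN measured 142 and 41.5 FPKM, a log2 ratio of -1.75. ASPN, which binds collagen and transforming growth factor beta, measured 3.47 and 1.21 FPKM, a log2 ratio of -1.02. DCN and BGN were thus the most abundant SLRPs of libraries labelled synj1+/+ at this site, whereas ASPN was the least abundant and lay only just past the 2-fold threshold, at 2.02-fold.

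Among the class II members, LUM measured 21.7 and 1.94 FPKM, a log2 ratio of -2.95, the lowest in the family. FMOD measured 38.3 and 22.0 FPKM, a log2 ratio of -0.78, which left it just short of the threshold at 1.71-fold. PRELP measured 88.8 and 70.6 FPKM, a log2 ratio of -0.33. LUM and FMOD, close relatives that share a binding region on collagen, therefore stood far apart in ratio.

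OGN, also called mimecan, is the class III member and is known from bone, vessel wall and heart. It measured 6.26 FPKM in libraries labelled synj1+/+ and 1.88 in libraries labelled synj1+/-, a log2 ratio of -1.33. Counted from the lowest ratio of all 12337 genes, LUM was at rank 8, DCN at 11, BGN at 32, OGN at 78, ASPN at 159, FMOD at 313 and PRELP at 1392. DCN, LUM and BGN were thus among the lowest ratios of the whole table, and PRELP was not.

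The size of the ratio depended on the offset of 1 for the low genes. Without it, the log2 ratio was -3.48 for LUM (11.2-fold), -1.74 for OGN and -1.52 for ASPN, while DCN stood at 7.32-fold against 7.00-fold with the offset. With a further 10 added to every value, 3 of the 7 stayed past 2-fold and the median was -0.58.

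**Figure D2:**
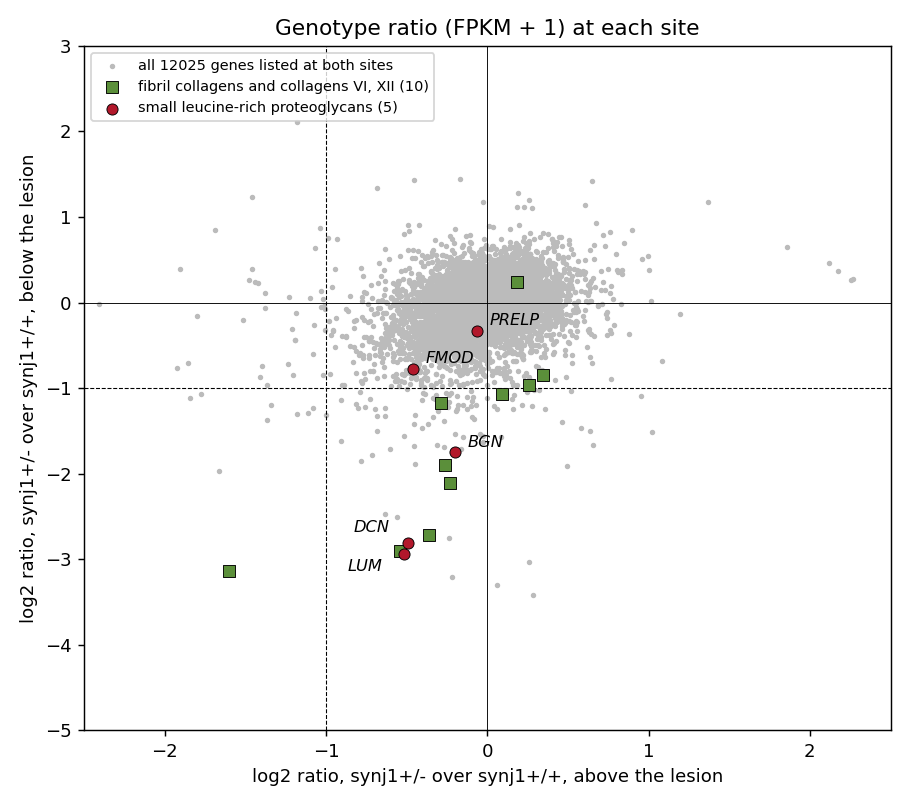
Log2 ratio of FPKM plus 1, libraries labelled synj1+/- over libraries labelled synj1+/+, above (horizontal axis) and below (vertical axis) the lesion, for all 12025 genes listed at both sites, with the 5 SLRPs and 10 collagens on top and dashed lines at 2-fold lower. DCN, LUM and BGN lie low on the vertical axis, at -0.49, -0.52 and -0.20 on the horizontal one. FMOD and PRELP lie closer to the bulk of genes on the vertical axis. A total of 5 genes fall outside the axes.

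The 5 SLRPs listed at both sites were then compared between sites within each genotype. The sites were reduced to different numbers of reads and may have been normalized separately, so the site ratio of all genes stands beside each value. In libraries labelled synj1+/+, 3 of 5 SLRPs were at least 2-fold higher below than above the lesion, with a background of 0.99% of genes. In libraries labelled synj1+/-, 1 of 5 was, DCN, with a background of 0.324%. The members' median log2 ratio, below over above, was 1.702 in libraries labelled synj1+/+ and 0.16 in libraries labelled synj1+/-, while the medians over all 12025 genes were -0.00 and 0.02.

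DCN was 13.1-fold higher below than above in libraries labelled synj1+/+ and 2.62-fold higher in libraries labelled synj1+/-. LUM was 8.50-fold and 1.58-fold higher in the same order, and BGN 3.25-fold and 1.12-fold. Among all genes the site ratio of DCN in libraries labelled synj1+/+ was the third from the highest and that of LUM was at rank 10. DCN, LUM and BGN also had the lowest genotype ratios among the 5 below the lesion, but both comparisons use the same value, that of libraries labelled synj1+/+ below the lesion.

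FMOD was 1.22-fold higher below than above in libraries labelled synj1+/+ and 0.977-fold in the other group. PRELP ran the other way in both groups, at 0.889-fold and 0.741-fold. The genotype log2 ratio below minus that above was -2.43 for LUM, -2.32 for DCN, -1.54 for BGN, -0.31 for FMOD and -0.26 for PRELP. No test of this difference was possible without values of single libraries.

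**Figure D3:**
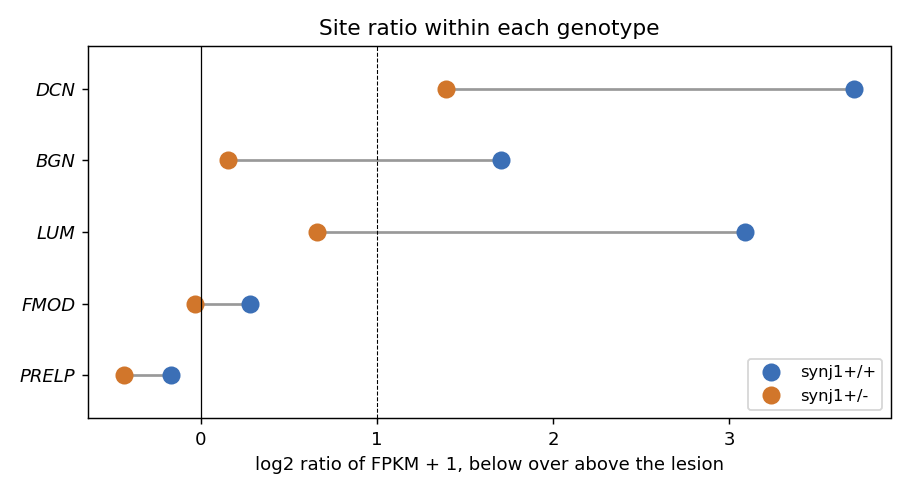
Log2 ratio of FPKM plus 1, below over above the lesion, for the 5 SLRPs listed at both sites, with 1 point per genotype and a dashed line at 2-fold. DCN, LUM and BGN reach 3.71, 3.09 and 1.702 in libraries labelled synj1+/+ and 1.39, 0.66 and 0.16 in libraries labelled synj1+/-. In the same order of groups, FMOD lies at 0.28 and -0.03 and PRELP at -0.17 and -0.43.

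The make-up of the family also differed between groups. The summed level of the 5 SLRPs was 185 FPKM above and 428 below the lesion in libraries labelled synj1+/+, and 163 above and 155 below in libraries labelled synj1+/-. PRELP made up 53.9% and 58.8% of the sum above the lesion in the groups labelled synj1+/+ and synj1+/-. Below the lesion PRELP made up 20.8% in libraries labelled synj1+/+ and 45.6% in libraries labelled synj1+/-.

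DCN took the opposite course, with 5.18% and 4.02% of the sum above the lesion and 32.1% and 12.1% below it, each time synj1+/+ first. The share of BGN was 23.1% and 22.8% above and 33.1% and 26.8% below. LUM never passed 5.06% and FMOD lay between 8.95% and 16.9%. PRELP was thus the leading SLRP of both groups above the lesion and of libraries labelled synj1+/- below it, and BGN and DCN led in libraries labelled synj1+/+ below it. FPKM divides by transcript length, but the deposited values also followed the number of transcript models of a gene (Spearman's rho of 0.50 across 13449 genes, which are not independent replicates), so the order between genes is less firm than the ratio of 1 gene between groups.

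Most members sit beside a relative in the genome (RefSeq, GRCm38.p6). Dcn (chr10:97479500-97518163) and Lum (chr10:97565501-97572703) lie 47.3 kb apart and had the 2 lowest ratios of the family below the lesion. The next genes of that run, Kera and Epyc, were not listed. Prelp (chr1:133910304-133930102) and Fmod (chr1:134037254-134048280) lie 107 kb apart and had the 2 ratios closest to 0. Bgn (chrX:73483601-73495936) stands alone.

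Aspn (chr13:49544443-49567565) and Ogn (chr13:49608015-49624501) belong to a cluster of 4 SLRP genes with Ecm2 (chr13:49504810-49532789) and Omd (chr13:49582462-49592612), separated by 11.7, 14.9 and 15.4 kb. Below the lesion OMD (osteomodulin), a keratan sulfate SLRP of bone, measured 5.16 FPKM in libraries labelled synj1+/+ and 1.21 in libraries labelled synj1+/-, a log2 ratio of -1.48. ECM2, at the other end of the cluster, measured 3.89 and 2.92 FPKM, a log2 ratio of -0.32. Neighbouring genes therefore did not all share 1 ratio. The cluster lies within Cenpp (chr13:49464025-49652950) on the opposite strand, and since the library kit did not mark strand, reads of Cenpp and of these SLRPs cannot be told apart where exons overlap. Cenpp was not listed at either site.

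Of 11 further family members, 5 were listed below the lesion and 3 above it, and OMD was the one at least 2-fold lower. Tsukushi (TSKU), an SLRP that binds signalling proteins, measured 29.2 and 17.8 FPKM below (log2 ratio -0.68) and 22.2 and 16.1 FPKM above (-0.44). Podocan (PODN) measured 11.6 and 8.03 FPKM below (-0.48). CHADL, a chondroadherin-like inhibitor of collagen fibril formation, was the exception in direction, at 64.3 and 70.5 FPKM below (0.13) and 65.6 and 70.7 FPKM above (0.11). Its gene overlaps L3MBTL2, a listed gene on the opposite strand, so reads of the 2 cannot be told apart where exons overlap. CHAD, EPYC, KERA, NYX, OPTC and PODNL1 were not listed at either site.

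The collagens that SLRPs bind had a similar range of ratios. Of 12 collagen genes named (chains of types I, II, III, V, VI, XI, XII and XIV), 11 were listed below the lesion. Of these, 8 were at least 2-fold lower in libraries labelled synj1+/-, against 1.31% of all genes, and the median log2 ratio was -1.37. The lowest collagen was COL3A1, the type III chain of young scar and vessel wall, at 68.9 and 6.91 FPKM (log2 ratio -3.14). COL1A1 and COL1A2, the type I chains, had log2 ratios of -2.91 and -2.71, close to that of DCN.

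The chains of type VI collagen, which forms beaded filaments that bind decorin and biglycan, followed with -2.11 for COL6A3 and -1.90 for COL6A2. Above the lesion 1 of 10 listed collagens was at least 2-fold lower, against 0.557% of all genes, and the median was -0.25. There 6 of the 10 were lower and 4 higher. Only 3 of them had a value of at least 10 in either group, and the collagen past 2-fold was not among these. The summed collagen level was 405 FPKM below the lesion in libraries labelled synj1+/+ and 149 in libraries labelled synj1+/-, against 135 and 130 above. As with the SLRPs, libraries labelled synj1+/+ below the lesion stood apart.

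Genes that cut or process SLRPs and their collagens were lower below the lesion in 11 of 11 listed, with log2 ratios from -2.13 to -0.05. Over all genes at that site 47.2% were lower and 1.31% were at least 2-fold lower. Of the proteases and helpers 4 were at least 2-fold lower, and the median was -0.43. Only 2 of the 4 had a value of at least 10 in either group. PCOLCE, which enhances procollagen processing, measured 31.9 and 10.0 FPKM (-1.58). MMP12, a macrophage elastase, measured 63.0 and 21.3 FPKM below (-1.52) but 21.7 and 45.0 FPKM above (1.02), the 1 gene of 10 at least 2-fold higher there, where 0.132% of all genes were.

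The enzymes that build the sugar chains were close to even between the groups. Of the genes for chondroitin and dermatan sulfate synthesis, 0 of 21 above and 0 of 18 below were past 2-fold in either direction, and the medians were both -0.04. The largest ratio in size was that of DSE, the epimerase that turns chondroitin into dermatan sulfate, at 15.2 and 8.15 FPKM below the lesion (-0.82). Of the keratan sulfate genes, 0 of 7 above and 0 of 5 below were past 2-fold, with medians of -0.06 and -0.13. In size these medians were below the SLRP medians of -0.46 above and -1.33 below, although DSE had a larger ratio than FMOD or PRELP below the lesion.

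Of the growth factors and receptors that SLRPs bind, 0 of 17 were past 2-fold at each site, with medians of -0.13 above and -0.27 below. Most were on the lower side, 15 of 17 at each site, against 51.0% of all genes above and 47.2% below. TLR2, a receptor for biglycan, had a log2 ratio of -0.51 above the lesion. CD14, its co-receptor, had -0.52 below, and TGFBR2, a receptor of transforming growth factor beta, -0.47 below.

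**Figure D4:**
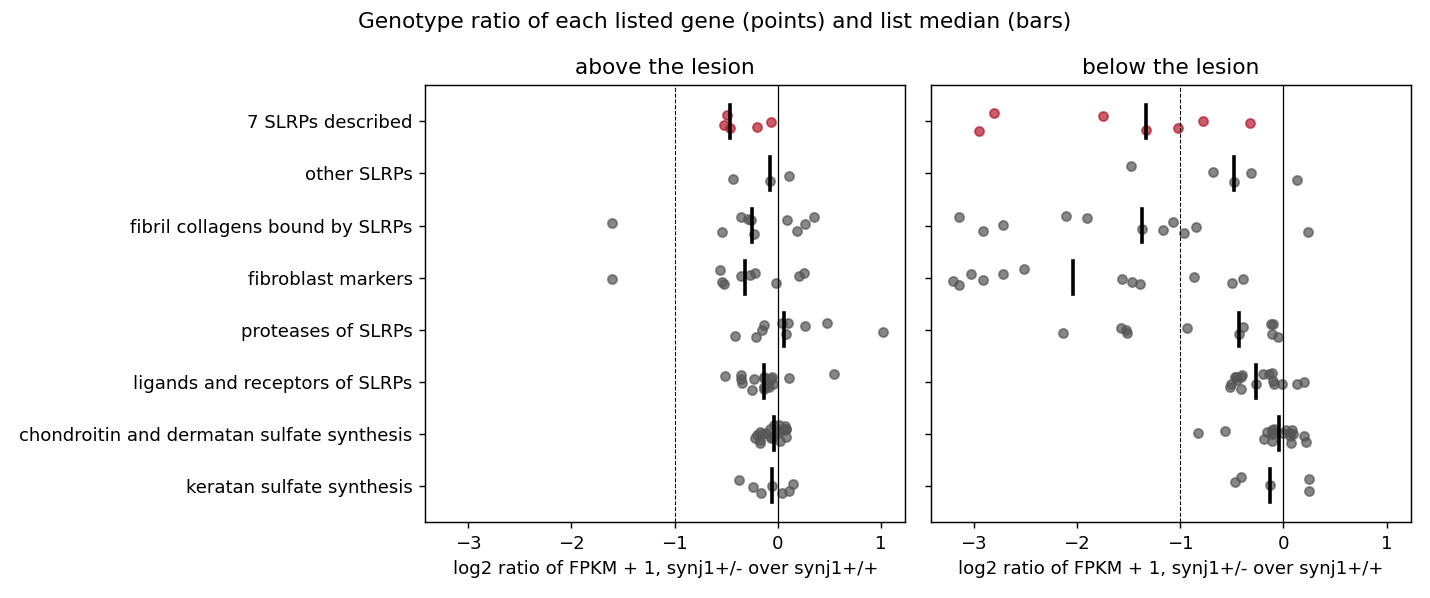
Log2 ratio of FPKM plus 1, libraries labelled synj1+/- over libraries labelled synj1+/+, for each listed gene of 8 lists (points, spread vertically at random) with list medians (bars), above and below the lesion. Below the lesion the SLRPs, collagens and fibroblast markers have medians of -1.33, -1.37 and -2.04, and the chain-synthesis genes centre near 0.

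Markers of fibroblasts were lower along with the SLRPs. Below the lesion 12 of 14 were listed, and all 12 were lower in libraries labelled synj1+/-, against 47.2% of all genes. At least 2-fold lower were 9 of the 12 markers, against 1.31% of all genes. The median log2 ratio of the markers was -2.04. Their summed level was 1373 FPKM in libraries labelled synj1+/+ and 387 in libraries labelled synj1+/-, against 146 and 108 above the lesion. IGF2 alone gave 89.4 and 62.1 FPKM of the sums above the lesion, so those sums mostly follow 1 gene. The list holds COL1A1, COL1A2 and COL3A1, which are also in the collagen list. MGP, an inhibitor of calcification made by fibroblasts and vessel wall, had a log2 ratio of -3.20, and IGFBP6, a meningeal fibroblast gene, -3.03.

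Within libraries labelled synj1+/+, 9 of 10 fibroblast markers at both sites were at least 2-fold higher below than above. In libraries labelled synj1+/- 4 of 10 were. The same shares over all genes were 0.99% and 0.324%. Above the lesion only 3 of these 10 markers had a value of at least 10 in either group, so the offset of 1 weighs on the ratios of the rest. Set against the fibroblast markers' own median, the SLRP median below the lesion turned from -1.33 to 0.70, with DCN (-0.77) and LUM (-0.91) lower and the other 5 higher. The part of the fibroblast markers in the SLRP ratios was not tested, and how much meninges or scar each dissected segment held is not given in the sources used here.

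Of the other tissues that make SLRPs, tendon, cartilage and bone had 4 of 12 markers listed at each site, with summed levels of 41.2 and 43.0 FPKM below the lesion, and COL2A1, COMP and TNMD were not listed. Skeletal muscle had 1 of 8 markers listed above and 2 of 8 below, where they summed to 6.06 and 7.45 FPKM. Schwann cell markers were lower below the lesion in 5 of 5, with a median of -0.54 and EGR2 at 41.4 and 16.8 FPKM (-1.25). Microglia and macrophage markers were lower in 10 of 10 below and 11 of 12 above, with medians of -0.65 and -0.42 and none past 2-fold. Of all genes, 47.2% were lower below the lesion and 51.0% above it. The microglia and macrophage median above the lesion lay between the fibroblast marker median of -0.32 and the SLRP median of -0.46. The part of these cell types in the SLRP ratios was not tested.

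Below the lesion, markers of neurons, other glia and vessel cells differed less than those of microglia and macrophages. Neuron markers were higher in libraries labelled synj1+/- in 8 of 8 below the lesion (median 0.19), where 47.2% of all genes were lower. Astrocyte markers had a median of -0.17 and oligodendrocyte markers -0.03. Endothelial markers had a median of -0.19, and pericyte and smooth muscle markers -0.16. These medians were smaller in size than those of the SLRPs, collagens and fibroblast markers.

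To find genes of the same course over the 4 groups, log2 values centred on each gene's mean were compared with the median SLRP course, which was -0.36 and -0.57 above the lesion and 1.34 and -0.33 below it, synj1+/+ first. Candidates were the 9629 genes other than SLRPs listed at both sites with a value of at least 10 in 1 group at each site. This filter was not applied to the SLRPs. Above the lesion only 3 of 10 listed collagens and 3 of 10 listed fibroblast markers reached that value. The 10 closest candidates by Euclidean distance were CTSK, ELN, SERPING1, SERPINH1, RCN3, COL18A1, COL4A1, HSPG2, IGF1 and MFAP2, at distances from 0.115 to 0.350. Of the SLRPs themselves, BGN lay closest to the median course at 0.0826, while FMOD, LUM, PRELP and DCN lay at 1.07, 1.298, 1.59 and 1.79. Each of these last SLRPs lay farther from the median course than all 10 named genes, so the list describes genes like BGN.

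Several of the 10 encode matrix proteins, among them elastin (ELN), the microfibril protein MFAP2 and the basement membrane components COL4A1, COL18A1 and perlecan (HSPG2). SERPINH1, the collagen chaperone, had log2 genotype ratios of -1.67 below and -0.45 above the lesion. CTSK, a protease that degrades collagen, had -1.69 and -0.27. The likeness covers 4 group values for each gene and is a description only.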

How the data were processed

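RNA of 12 libraries (4 groups of 3) was prepared with an unstranded TruSeq kit. Per the study's methods and the submitters' processing notes, the authors reduced libraries of each site to the smallest by removing reads at random, aligned reads with STAR 2.5.4b, and normalized by upper quartile with Cufflinks/Cuffdiff 1.3.0; the notes name GRCm38.p6. The role of each tool in the deposited table is not given in the sources used here. The authors deposited 1 value per gene, genotype and site, with 0 columns of single samples, read here as FPKM plus 1: the header follows Cuffdiff and the lowest value is exactly 1, but the file does not name the unit. Its fold changes, p-values and q-values, and a shorter list chosen by p-value, hold the authors' own comparisons and were not used. Library depth cannot be read from the table, so no interval could be given.

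Log2 ratios were taken from the deposited values. Of 25985 rows, 3 symbols had 2 rows at a site and the larger was kept. No test was possible. The 2-fold count stands in its place, beside the same count over all genes. The members and lists were chosen with earlier results of these data known. Genes named are the SLRPs, SYNJ1, APOE, of each list those past 2-fold with a value of at least 10 in 1 group (up to 5, otherwise the 2 of largest ratio), and the 10 most alike in course. COL2A1, COMP, TNMD and Cenpp were named for not being listed, and L3MBTL2 for its overlap with CHADL. The APOE entry measured 766 and 548 FPKM above and 476 and 563 below the lesion, synj1+/+ first. Reads were aligned to the mouse genome while the mice expressed human ApoE4, so this entry cannot be read as the level of that allele. Known ratios planted on the deposited values without noise were recovered, which checks the arithmetic only. Alternatives covered the offset, a further 10 added, centring, a filter at 10, thresholds of 1.5-fold and 4-fold, and leaving out members. Python 3.11.15, numpy 2.4.6, pandas 2.3.3 and matplotlib 3.10.9 were used.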

Additional observations from a re-analysis of the deposited data

How the results depend on the processing

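Without values of single libraries, no replicate could be left out. No paired analysis was possible because the columns hold combined group values. Segments above and below the lesion may come from the same mice, so the sites cannot be taken as independent groups. A value was taken as unmoved if its sign held and its fold ratio or count stayed within 1.5 times the reported one. By this, 49 summary values were unmoved, 6 moved and 1 reversed. Some of the 49 could not have moved: with no SLRP 2-fold lower above the lesion, none could pass 4-fold there. The median above the lesion, itself under 1.5-fold, could shrink almost to no difference and still count as unmoved. Within that limit, the median log2 ratio above the lesion still went from -0.46 to -0.16 with 10 added and to -0.14 with fibroblast centring. Below the lesion, a further 10 added to each value gave a median log2 ratio of -0.58 and 3 SLRPs at least 2-fold lower, a filter at a value of 10 left 3, and a 4-fold threshold left 2. Subtracting the offset gave 2 SLRPs at least 2-fold higher below than above the lesion in libraries labelled synj1+/-, LUM joining DCN. Centring on the fibroblast marker median (-0.32 above, -2.04 below) left 0 SLRPs at least 2-fold lower below the lesion and turned the median to 0.70. It turned BGN to 0.29, FMOD to 1.26, OGN to 0.70, ASPN to 1.02 and PRELP to 1.71 below, and BGN to 0.11 and PRELP to 0.25 above. Leaving out each SLRP in turn gave medians from -0.48 to -0.33 above and from -1.54 to -1.18 below. Centring on the median of all genes and upper quartile scaling reversed none of these values.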

Other observations

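Genes of red blood cells differed between the genotype groups at the site where no SLRP reached 2-fold. All 5 listed (HBA-A1, HBA-A2, HBB-BS, HBB-BT and ALAS2) were at least 2-fold higher above the lesion in libraries labelled synj1+/-, with a median log2 ratio of 2.17 and a summed level of 248 FPKM in libraries labelled synj1+/+ and 1133 in libraries labelled synj1+/-. Below the lesion the sums were 629 and 825 FPKM, with a median log2 ratio of 0.37 and 0 of 5 past 2-fold. The share of all genes at least 2-fold higher above the lesion in libraries labelled synj1+/- was 0.132%.

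Within libraries labelled synj1+/+, the microglia and macrophage markers had a median log2 ratio, below over above the lesion, of 0.53, and the endothelial markers of 0.49, against 3.17 for the fibroblast markers and 1.702 for the SLRPs. In libraries labelled synj1+/- the same medians were 0.02, 0.12, 0.77 and 0.16. NCMAP, a myelin gene of Schwann cells, measured 7.49 and 14.6 FPKM above the lesion, a log2 ratio of 0.88. Below the lesion NCMAP was on the lower side, as were all 5 listed Schwann cell markers, EGR2 among them. No test of any of these values was possible.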
